A study of Camellia reticulata with 27 samples.

Results

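Small RNAs called miRNAs silence genes by guiding a protein complex to matching messenger RNAs. In plants they are cut in the nucleus from hairpin primary transcripts by a Dicer-like enzyme with helper proteins, loaded into an Argonaute protein, and then cleave their target messenger RNA or block its translation. In flowers they are known for setting the amounts of transcription factors that control floral timing, organ identity and pigment synthesis. The 6 transcripts described here, Cluster-100695.7, Cluster-100695.9, Cluster-100695.10, Cluster-100695.13, Cluster-100695.17 and Cluster-100695.19, are those of 225938 assembled transcripts that the study's supplementary list of co-expressed transcripts labels with the function of producing miRNAs for gene silencing. The label comes from the study's annotation, and no other name or role is given to these transcripts here. The list additionally places Cluster-100695.19 in the SNF2 family of transcription regulators. SNF2 proteins are ATPases that move nucleosomes, and in Arabidopsis a member of the family also acts on the primary transcripts of miRNAs. The libraries measured messenger RNA enriched by its poly(A) tail, so they hold transcripts for the machinery and not the mature miRNAs.

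RNA was sequenced from petals of Camellia reticulata, an ornamental tree, in 27 libraries that made 9 groups of 3. The cultivar Tongzimian (TZM) has white flowers and Shizitou (SZT) has red flowers, and each was collected as buds and again at full bloom. The cultivar labelled Manao (MN), called Damanao in the study, has flowers of mixed red and white. The study describes MN as a bud variant of SZT. MN was sampled at bud stage 1 (early), bud stage 3 (late) and initial flowering, and separately in the white and red regions at full bloom. For the buds of TZM and SZT no such stage number is given. All plants grew in tea gardens, and no treatment is described. The sources used here do not say whether the 3 libraries of a group came from separate plants, so p-values measure only the spread between these libraries, which may be technical. The labels name the tissue as flowers, and since the table holds no gene annotation, its petal identity could not be checked against markers. In such bulk samples, fewer cells of a type and less RNA per cell cannot be told apart.

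The values are FPKM as deposited by the authors, that is, fragments mapped to a transcript scaled by its length and by the total of the library. FPKM summed to between 1117467 and 1320744 per library, between 126900 and 148030 transcripts lay above 0, and the 10 most abundant transcripts took 4.03% to 13.7%. Read counts are not used here, so the depth behind a value is unknown. The test was limma on log2(FPKM + 1) for every transcript whose mean reached 5 FPKM in any group, which made 55099 tests in each of 13 comparisons. On that scale the changes of lowly expressed transcripts are understated. The call required a p, adjusted by the Benjamini-Hochberg method, of at most 0.001 and a change of at least 1 in log2. A wider threshold, an adjusted p under 0.05, is given beside it, and "rose" and "fell" are used for what passed the wider threshold. All 6 transcripts were tested, and each would also have passed the filter on MN at initial flowering alone, where their means were 19.7 to 40.7 FPKM.

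The list was drawn from these same libraries. Its 6 transcripts entered it because their expression moved with that of Cluster-100695.19, which is paired there with itself. That they resemble each other over the 9 groups is therefore fixed by the choice, and the counts below are not independent evidence of a common direction. They also carry 1 cluster number, the number before the point in their names, which 16 further transcripts in the table carry. The sources used here do not say what it stands for. Reads can be shared between such transcripts, so the division of FPKM among them is less certain than the sum over all 22. This also holds for the division between the 6 and the 16 others, and the 6 should not be read as 6 separate genes.

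All 6 transcripts were present in all 27 libraries, with no value at 0. Their means over the libraries were 11.1 FPKM for Cluster-100695.17, 16.4 for Cluster-100695.7, 20.5 for Cluster-100695.13, 21.7 for Cluster-100695.10, 22.7 for Cluster-100695.19 and 25.1 for Cluster-100695.9. These levels lay between the 70.2 and 85.7 percentiles of the tested transcripts. In the F test over the 9 groups all 6 had an adjusted p of at most 0.001, from 1.15e-08 for Cluster-100695.13 to 6.99e-06 for Cluster-100695.10 (limma), as did 60.7% of all tested transcripts.

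One order of groups was shared at its top. By group means, each of the 6 transcripts was highest in TZM at the bud stage and second in MN at initial flowering. SZT at the bud stage was the third for 5 of them, and for Cluster-100695.10 MN at bud stage 1 was the third. The mean of the highest group was 8.67 times that of the lowest for Cluster-100695.9 and 14.3 times for Cluster-100695.7, with the others in between. Summed over the 6, the level was 426 ± 84.6 FPKM (SD, n = 3) in TZM at the bud stage, with single libraries at 328, 483 and 466. It was 188 ± 46.1 FPKM (SD, n = 3) in MN at initial flowering, with libraries at 233, 191 and 141. In SZT at the bud stage it was 118 ± 38.3 FPKM (SD, n = 3), with libraries at 110, 160 and 84.5. The 3 libraries of TZM buds lay above those of all other groups, and the ranges of MN at initial flowering and of SZT buds overlapped.

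The other 6 groups had lower sums. The summed level was 74.9 ± 12.99 FPKM in MN at bud stage 1, 59.5 ± 7.41 at bud stage 3 and 57.4 ± 9.05 in TZM at full bloom (SD, n = 3 each). It was 46.5 ± 5.02 in the white region of MN, 46.0 ± 16.9 in its red region and 41.1 ± 8.14 in SZT at full bloom (SD, n = 3 each). In this order of 9 sums, only TZM buds and MN at initial flowering were neighbours whose ranges did not overlap. Further apart, all libraries of MN at bud stage 1 (62.9 to 88.7 FPKM) and bud stage 3 (52.8 to 67.5) lay above some groups. Those were the white region of MN (41.7 to 51.7) and SZT at full bloom (32.0 to 47.6). All 36 pairs of groups were also tested in the same fit, a step added after the levels had been seen. Of the 15 pairs that involved neither TZM buds, MN at initial flowering nor SZT buds, 0 had a called transcript and 4 had at least 1 transcript at an adjusted p under 0.05 (limma). Of the 8 pairs that involved TZM buds, 5 had all 6 transcripts called and 7 had all 6 at an adjusted p under 0.05. Of all tested transcripts, between 0.0363% and 31.3% were called in the 15 pairs and between 15% and 25.7% in the 8, and at the wider threshold it was between 0.167% and 53.9% and between 36.4% and 49.4%. The pair of TZM buds and MN at initial flowering had 0 called, against 15.5% of all tested transcripts. At the wider threshold 5 passed, against 36.7%, and the ranges of Cluster-100695.10 overlapped. Between MN at initial flowering and SZT buds 0 were called, against 10.7%, and 2 passed the wider threshold, against 29.9% (limma). The pairs share libraries.

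**Figure D1:**
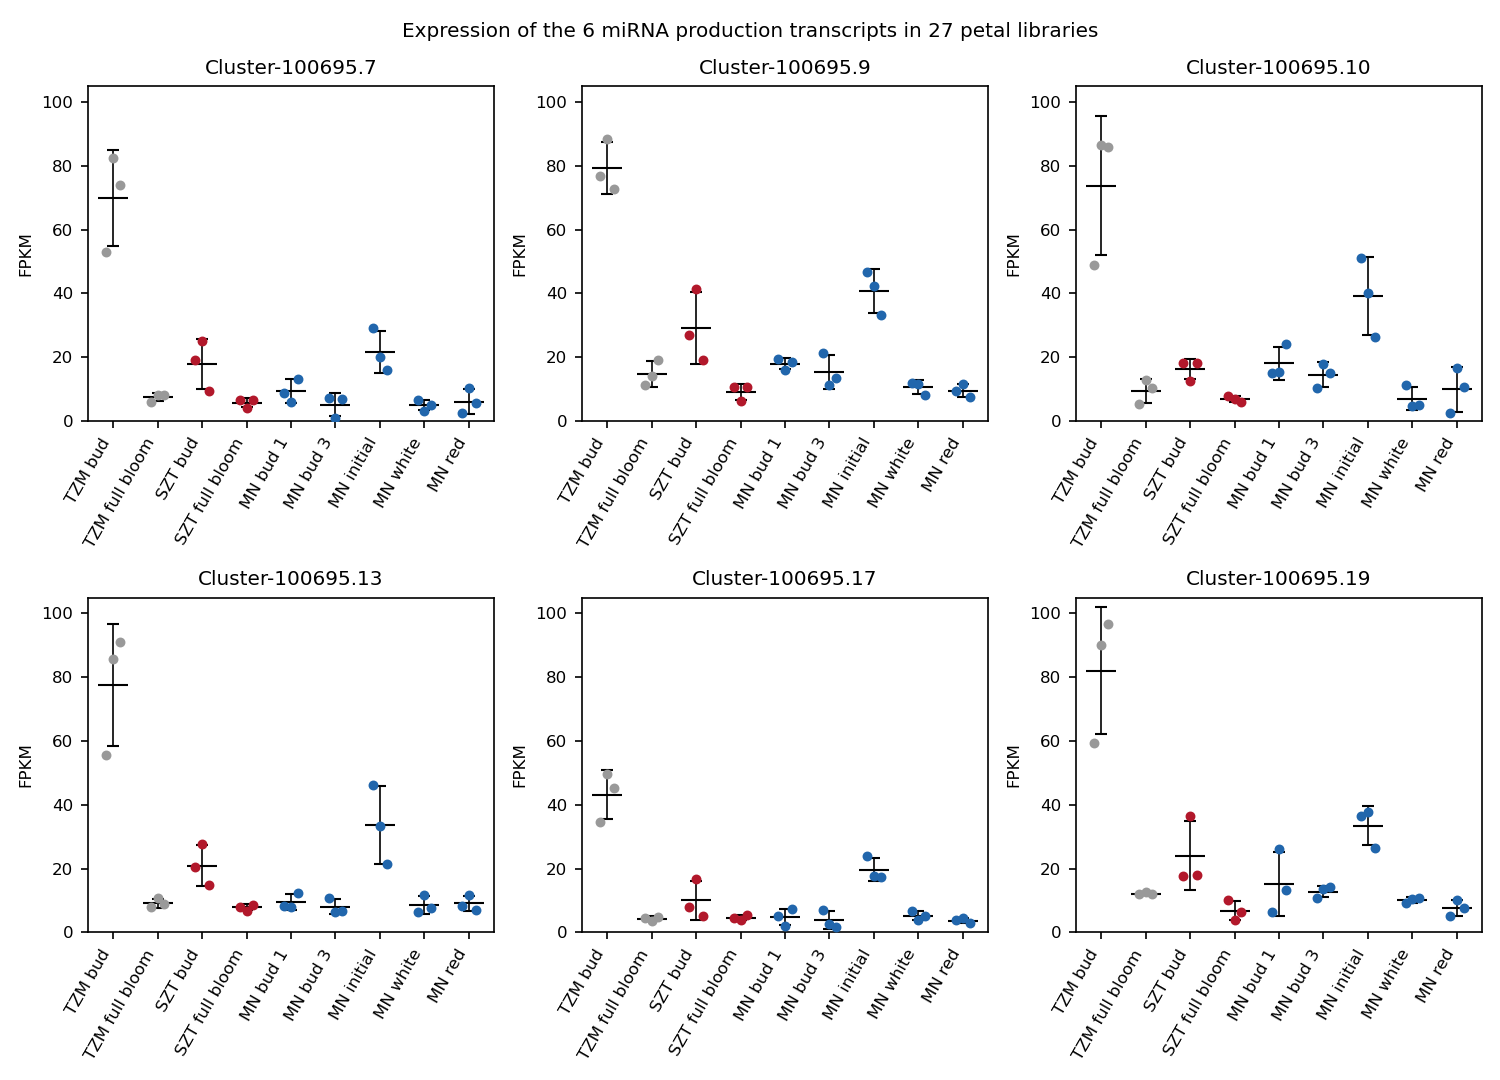
FPKM (y axis) of each of the 6 transcripts in the 27 libraries, by group (x axis), with points for libraries and a line and bars for the mean and SD of 3. TZM buds are highest and MN at initial flowering second in every panel, and apart from SZT buds the remaining groups lie near the bottom.

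Between bud and full bloom, TZM lost most of the expression of all 6 transcripts. Cluster-100695.17 was at 34.6, 49.7 and 45.3 FPKM in the bud libraries and at 4.60, 3.50 and 4.81 at full bloom. Cluster-100695.7 was at 53.1, 82.3 and 74.0 FPKM in buds and at 6.01, 8.27 and 8.06 at full bloom. These 2 transcripts had the largest ratios of means, with buds 10.04 and 9.37 times higher. Cluster-100695.13 went from 55.7, 85.8 and 91.0 FPKM to 7.89, 10.7 and 8.92, and Cluster-100695.10 from 48.8, 86.6 and 86.0 to 5.31, 12.7 and 10.3. Cluster-100695.19, the transcript with the SNF2 label, went from 59.3, 90.0 and 96.8 FPKM to 11.9, 12.7 and 12.0. Cluster-100695.9 had the smallest ratio, 5.35, from 76.9, 88.3 and 72.6 FPKM in buds to 11.2, 14.01 and 19.2 at full bloom. Every bud library was above every full-bloom library for each of the 6, which held in this direction for 28.2% of all tested transcripts.

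On the log2 scale the 6 transcripts fell by 2.37 to 3.05, with a median of -2.90 against -0.09 over all tested transcripts. All 6 were called lower at full bloom, as were 10.8% of all tested transcripts. Cluster-100695.13 had the smallest p (log2 difference -2.92, SE 0.29, limma adjusted p = 7.32e-08) and Cluster-100695.7 the largest (log2 difference -3.05, SE 0.49, limma adjusted p = 3.68e-05). With any 1 library left out the count stayed at 6. In a fit on the 6 libraries of this comparison alone, 1 was called and 6 had an adjusted p under 0.05 (limma), against 0.904% and 19.9% of all tested transcripts in this direction. In the fit on all libraries all 6 passed the wider threshold, against 23.6% of all tested transcripts. The summed level in buds was 7.42 times that at full bloom, and between 6.80 and 8.27 times with single libraries left out. With the libraries rescaled by median ratios it was 6.39 times. Summed over all 22 transcripts of the cluster number, the mean level was 723 FPKM in buds and 335 at full bloom.

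The red cultivar SZT went the same way, with smaller differences. Cluster-100695.9 was at 27, 41.3 and 19.2 FPKM in the bud libraries and at 10.5, 6.28 and 10.6 at full bloom. Cluster-100695.19 was at 17.6, 36.5 and 17.9 FPKM in buds and at 10.2, 3.91 and 6.55 at full bloom. Cluster-100695.13 was at 20.4, 27.7 and 14.8 FPKM in buds and at 8.04, 6.85 and 8.73 at full bloom. These 3 were called lower at full bloom, as were 16.4% of all tested transcripts, with log2 differences of -1.54 (SE 0.27, limma adjusted p = 6.61e-05), -1.67 (SE 0.37, limma adjusted p = 0.00079) and -1.27 (SE 0.29, limma adjusted p = 0.000984). Cluster-100695.7 was at 19.1, 24.9 and 9.37 FPKM in buds and at 6.56, 4.02 and 6.58 at full bloom, and Cluster-100695.10 was at 18.1, 12.6 and 18.1 against 7.66, 6.95 and 5.94. Both fell at the wider threshold, by 1.41 and 1.12 in log2 (limma adjusted p = 0.0214 and 0.0413), so that 5 of 6 passed it against 30.8% of all tested transcripts. Cluster-100695.17 was at 7.99, 16.9 and 5.28 FPKM in buds and at 4.63, 3.96 and 5.39 at full bloom, with overlapping ranges (log2 difference -0.83, SE 0.38, limma adjusted p = 0.0779). For the other 5 the bud libraries lay above those of full bloom, which held for 32.3% of all tested transcripts.

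The SZT result rested more on single libraries. Replicate 2 of the SZT buds had the highest value of the 3 for 5 of the 6 transcripts, with Cluster-100695.10 as the exception. The summed level in buds was 2.88 times that at full bloom, and 2.37 times without that library. After scaling by median ratios it was 2.22 times. Over all 22 transcripts of the cluster number the mean sum was 375 FPKM in buds and 246 at full bloom. The median of the 6 log2 differences was -1.34, while the median over all tested transcripts was itself -0.23, and with the libraries rescaled by median ratios 0 of the 6 were called and 3 had an adjusted p under 0.05 (limma). The number called was 1 without replicate 1 or replicate 2 of the buds, or without replicate 2 or replicate 3 at full bloom, and 0 were called in a fit on the 6 libraries compared alone, against 1.28% of all tested transcripts downwards. In that fit 5 passed the wider threshold, against 24.8%.

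Whether the fall from bud to full bloom differed between the cultivars was tested as an interaction. The buds of neither carry a stage number, so cultivar and bud age cannot be told apart in this test. For all 6 transcripts the fall was estimated smaller in SZT than in TZM, by 0.83 to 2.22 on the log2 scale, and 0 of 6 passed the strict call (5 had an unadjusted p under 0.05, limma) against 6.15% of all tested transcripts in this direction. At the wider threshold 3 passed, against 16.9%. Cluster-100695.17 had a difference of 2.22 (SE 0.54, limma adjusted p = 0.00302), Cluster-100695.13 of 1.66 (SE 0.41, limma adjusted p = 0.00342) and Cluster-100695.10 of 1.74 (SE 0.63, limma adjusted p = 0.0355). With single libraries left out the first 2 kept an adjusted p of at most 0.0113 and 0.0125, while that of Cluster-100695.10 reached 0.0966.

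The buds of SZT and TZM differed. Since neither carries a stage number, cultivar and bud age cannot be told apart here. At the bud stage all 6 transcripts were lower in SZT than in TZM, with no overlap of the libraries, against 20.5% of all tested transcripts, and the mean in TZM was 2.72 times that in SZT for Cluster-100695.9 and 4.54 times for Cluster-100695.10. Of the 6, 5 were called lower in SZT, as were 6.5% of all tested transcripts. All 6 passed the wider threshold, as did 16.2%. The log2 differences ran from -2.12 for Cluster-100695.17 (SE 0.38, limma adjusted p = 0.000161) to -1.47 for Cluster-100695.9 (SE 0.27, limma adjusted p = 0.000188), and Cluster-100695.7 missed the strict call at -1.99 (SE 0.49, limma adjusted p = 0.00302). The number called was 1 without replicate 1 or replicate 3 of the SZT buds or without replicate 2 of the TZM buds, 2 without replicate 3 of the TZM buds, and 0 in a fit on the 6 libraries alone. At the wider threshold the count was 6 in each of these settings. In the last of these fits 0.964% of all tested transcripts were called lower and 13.2% passed the wider threshold downwards.

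At full bloom the test did not tell the same cultivars apart by these transcripts. Between SZT and TZM 0 of 6 transcripts were called, against 18.3% of all tested transcripts in either direction, and 2 had an unadjusted p under 0.05 (limma). At the wider threshold 0 passed, against 41.3%. Their median log2 difference was -0.34, and that over all tested transcripts was 0. Group means at full bloom ran from 4.30 to 14.8 FPKM in TZM and from 4.66 to 9.14 in SZT. For Cluster-100695.9 and Cluster-100695.19 the libraries of SZT, at 6.28 to 10.6 and 3.91 to 10.2 FPKM, lay below those of TZM, at 11.2 to 19.2 and 11.9 to 12.7, with limma adjusted p of 0.0629 and 0.0835, and such a separation downwards held for 23.2% of all tested transcripts. Without replicate 1 of either group, 1 transcript passed the wider threshold.

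In the mixed-colour cultivar the 6 transcripts were low in buds, high at initial flowering and low again at full bloom. From bud stage 1 to bud stage 3 no difference was detected. In this comparison 0 of 6 were called against 0.294% of all tested transcripts, 0 passed the wider threshold against 3.97%, and 0 had an unadjusted p under 0.05 (limma). Cluster-100695.9 was at 19.3, 16 and 18.5 FPKM at bud stage 1 and at 21.3, 11.3 and 13.3 at bud stage 3. Cluster-100695.19 was at 6.33, 26.1 and 13.2 FPKM at bud stage 1, its widest spread relative to the mean in any group, and at 10.7, 13.6 and 14.1 at bud stage 3. Cluster-100695.7 was at 8.83, 5.86 and 13.2 FPKM and then at 7.25, 0.83 and 7, where the second library held the lowest value of any of the 6 transcripts in the study. The ranges of both stages overlapped for all 6, whereas 9.61% of all tested transcripts were higher and 10.8% lower at bud stage 3 without overlap.

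From bud stage 3 to initial flowering all 6 transcripts rose. Cluster-100695.17 was at 7, 2.60 and 1.75 FPKM at bud stage 3 and at 23.9, 17.8 and 17.4 at initial flowering, a ratio of means of 5.20. Cluster-100695.13 was at 10.9, 6.49 and 6.84 FPKM and then at 46.1, 33.4 and 21.6. Cluster-100695.9, at the bud stage 3 values above, was at 46.6, 42.3 and 33.1 FPKM at initial flowering. These 3 were called higher, as were 6.88% of all tested transcripts, with log2 differences of 2.25 (SE 0.38, limma adjusted p = 7.72e-05), 1.90 (SE 0.29, limma adjusted p = 2.24e-05) and 1.39 (SE 0.27, limma adjusted p = 0.000319). Cluster-100695.10 was at 10.3, 17.96 and 15.2 FPKM at bud stage 3 and at 50.96, 40.03 and 26.4 at initial flowering, and Cluster-100695.7 reached 29.0, 19.9 and 16.1. Cluster-100695.19 reached 36.4, 37.7 and 26.5 FPKM, with the smallest ratio of means, 2.62. In log2 these 3 rose by 1.36, 2.16 and 1.32 (limma adjusted p = 0.0204, 0.00143 and 0.00792).

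All 6 passed the wider threshold, against 16% of all tested transcripts, and the libraries did not overlap for any of them, against 21%. The median log2 difference was 1.64, and that over all tested transcripts -0.01. The strict count was between 2 and 4 with single libraries left out and 0 in a fit on the 6 libraries alone. At the wider threshold it was 5 or 6 in each of these settings. In the fit on the 6 libraries 3.18% of all tested transcripts were called higher and 14.9% passed the wider threshold upwards. Within the initial flowering stage, replicate 1 was above the group mean on the log2 scale for all 6 transcripts and replicate 3 below it for all 6.

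At full bloom both petal regions of MN had returned to low values. In the white region the values were 12.0, 11.7 and 8.01 FPKM for Cluster-100695.9, 11.2, 4.80 and 5.05 for Cluster-100695.10 and 6.27, 11.7 and 7.69 for Cluster-100695.13. These 3 were called lower than at initial flowering, as were 7.29% of all tested transcripts, and 6 of 6 passed the wider threshold, against 20.5%. The differences ran from -2.37 for Cluster-100695.10 (SE 0.45, limma adjusted p = 0.000309) to -1.61 for Cluster-100695.19 (SE 0.37, limma adjusted p = 0.002), whose white libraries were at 9.20, 10.6 and 10.8 FPKM. Cluster-100695.7 was at 6.44, 3.26 and 4.89 FPKM in the white region and Cluster-100695.17 at 6.65, 3.96 and 5.24. For all 6 the white libraries lay below those of initial flowering, against 29.3% of all tested transcripts.

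In the red region Cluster-100695.9 was at 9.35, 11.5 and 7.43 FPKM, Cluster-100695.13 at 8.39, 11.7 and 7.17, Cluster-100695.17 at 3.92, 4.47 and 2.80 and Cluster-100695.19 at 5.20, 10.3 and 7.67. These 4 were called lower than at initial flowering, as were 6.39% of all tested transcripts. Cluster-100695.10, at 2.57, 16.6 and 10.6 FPKM, missed the strict call at the threshold itself (log2 difference -2.11, SE 0.45, limma adjusted p = 0.00101), and Cluster-100695.7, at 2.5, 10.2 and 5.48, had an adjusted p of 0.00786 (limma). All 6 passed the wider threshold, against 19.1%, their libraries all lay below those of initial flowering, against 28.3%, and their log2 differences ran from -2.13 to -1.74. Over all tested transcripts the median was -0.16 for this comparison and -0.18 for the white region. The strict count in the red region was 1 without replicate 1 of initial flowering or without replicate 3 of the red region. It was 0 for either region in fits on the 6 libraries compared alone, where 6 (white) and 4 (red) passed the wider threshold. In those fits 0.163% and 0.172% of all tested transcripts were called lower, and 18% and 16.8% passed the wider threshold downwards.

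The white and red regions themselves were not told apart by any of the 6 transcripts, in a test that took their libraries as unpaired. Of the 6, 0 were called and 0 had an unadjusted p under 0.05 (limma), 0 passed the wider threshold, and 0.0363% of all tested transcripts were called and 0.167% passed the wider threshold. The ranges of the 3 libraries overlapped for all 6, against 5.27% of all tested transcripts higher and 3.92% lower in red without overlap, and 3 of the 6 differences were positive and 3 negative, with a median of -0.03 on the log2 scale. The spread within the red region was wide, with replicate 2 above the group mean for all 6 transcripts. The summed level of the white region was 1.01 times that of the red, and between 0.878 and 1.27 times with single red libraries left out.

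The red region at full bloom and the late bud of MN were also not told apart by the test. The median log2 difference of the 6 was -0.25, and that over all tested transcripts -0.19. For Cluster-100695.19 the red libraries lay below those of bud stage 3, which held for 32.4% of all tested transcripts. Between the red region and bud stage 3, 0 of 6 transcripts were called, while 27.6% of all tested transcripts were, 0 passed the wider threshold against 49.3%, and 1 had an unadjusted p under 0.05 (limma). Without replicate 2 of the red region 2 transcripts passed the wider threshold, and without replicate 2 of bud stage 3 1 did. From bud to full bloom SZT had fallen in 5 of 6 transcripts, so the difference between the cultivars was tested. Of the 6, 0 passed the strict call in that test against 0.63% of all tested transcripts in that direction (3 had an unadjusted p under 0.05, limma), and 1, Cluster-100695.13, passed the wider threshold, against 5.28%. Its difference was 1.43 (SE 0.41, limma adjusted p = 0.0289), and the adjusted p reached 0.0800 with a library left out. The SZT buds carry no stage number, so cultivar and bud age cannot be told apart in that test.

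The next comparisons set MN beside the other cultivars, in buds and at full bloom. Since the SZT buds carry no stage number, cultivar and bud age cannot be told apart in the comparison of buds. At the bud stage all 6 estimates were lower in MN (bud stage 3) than in SZT, except that the one of Cluster-100695.10 turned to 0.039 without replicate 1 of MN at bud stage 3. Of these, 0 were called against 0.102% of all tested transcripts in this direction, 5 had an unadjusted p under 0.05, and 2 passed the wider threshold, against 1.9% (limma). They were Cluster-100695.13 (log2 difference -1.26, SE 0.29, limma adjusted p = 0.0177) and Cluster-100695.7 (log2 difference -1.83, SE 0.49, limma adjusted p = 0.0402). The count at the wider threshold was 0 without replicate 2 of MN at bud stage 3 or replicate 2 of the SZT buds, 1 without replicate 3 of the former or replicate 1 of the latter, and 4 without replicate 1 of the former or replicate 3 of the latter. In a fit on the 6 libraries alone it was 0, against 0.078% of all tested transcripts downwards.

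At full bloom the white region of MN and the white TZM did not differ by the test in any of the 6, with 0 called against 13.2% of all tested transcripts, 0 past the wider threshold against 34.1%, 0 at an unadjusted p under 0.05 and a median log2 difference of -0.32 (limma). The red region of MN and the red SZT also showed 0 called, against 2.81%, 0 past the wider threshold, against 13.6%, and 0 at an unadjusted p under 0.05, with a median of 0.11. In the 6 comparisons with 0 transcripts at the wider threshold, 14 of the 36 single differences changed sign under at least 1 other setting, 23 times with a library left out and 1 time otherwise, so they are given here by counts and medians.

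The share of each transcript in the sum of the 6 moved less than the sum itself. Group means of the share ran from 8.11% to 16.4% for Cluster-100695.7, from 19.1% to 25.6% for Cluster-100695.9 and from 14.7% to 25.1% for Cluster-100695.10. They ran from 12.5% to 20.6% for Cluster-100695.13, from 6.10% to 11.5% for Cluster-100695.17 and from 16.2% to 22.3% for Cluster-100695.19. No transcript thus made up most of the sum in any group.

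The study took the average of the replicates as the expression of a transcript. It does not state whether its co-expression list also used single libraries. Likeness over the group means was fixed by the choice of the 6, so their deviations from the group means within each group are given apart. On log2(FPKM + 1), the correlation of these deviations over the 27 libraries was positive for 14 of the 15 pairs of transcripts, with a median r of 0.37. It ran from -0.01 for Cluster-100695.17 with Cluster-100695.19 to 0.69 for Cluster-100695.9 with Cluster-100695.17. Over the 27 libraries without removing the group means, r ran from 0.76 to 0.95 with a median of 0.90. The transcripts of a pair share library, depth and possibly reads, so these are descriptions. Replicate 1 of the TZM buds was below its group mean for all 6 transcripts, and replicate 2 above it for all 6.

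**Figure D2:**
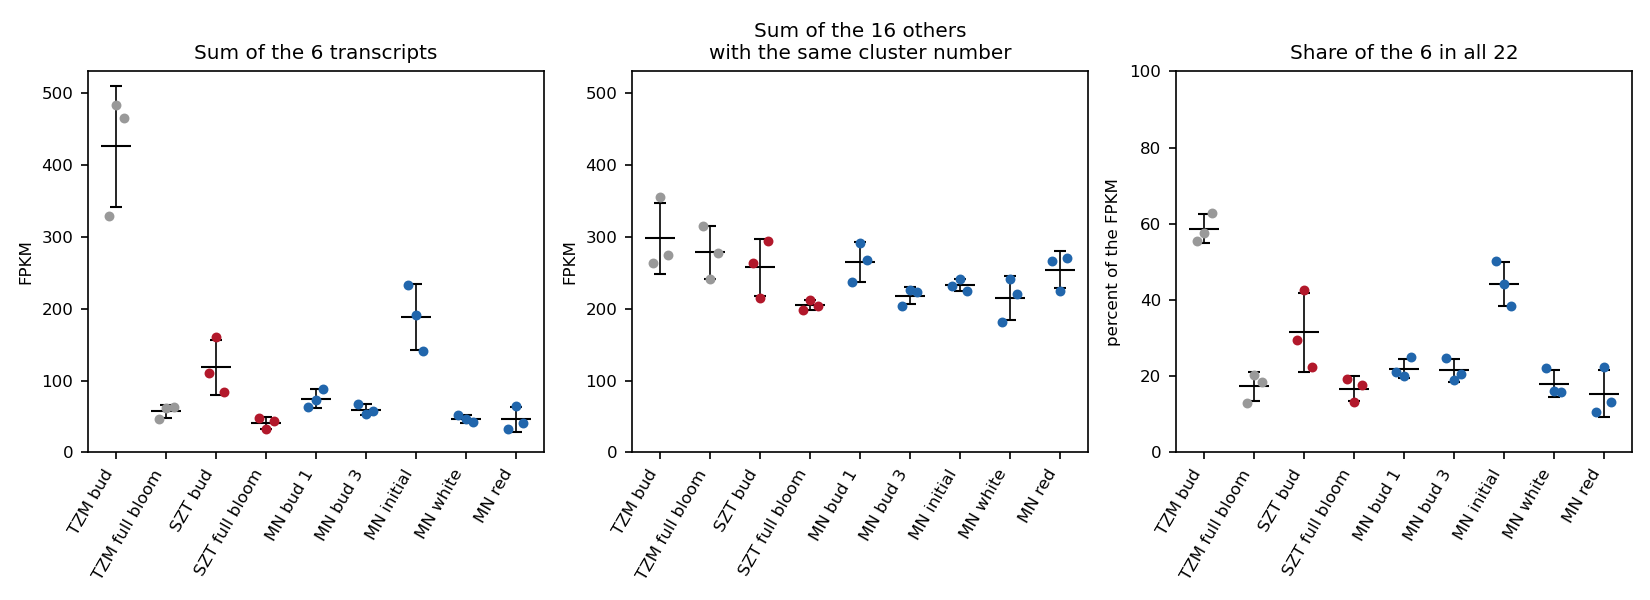
Summed FPKM of the 6 transcripts (left) and of the 16 others with their cluster number (middle), and the percent of the 6 in all 22 (right), by group (x axes), with points for the 27 libraries and lines and bars for the mean and SD of 3. The 6 range from 41.1 to 426 FPKM in group mean while the 16 others stay between 205 and 298.

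The 16 other transcripts of the same cluster number did not follow this course as a sum. Their summed level was 298 ± 49.8 FPKM in TZM buds and 278 ± 36.4 at full bloom, 257 ± 39.6 in SZT buds and 205 ± 6.83 at full bloom (SD, n = 3 each). In MN it was 265 ± 27.4 FPKM at bud stage 1, 218 ± 11.95 at bud stage 3, 233 ± 8.43 at initial flowering, 215 ± 30.5 in the white and 254 ± 25.4 in the red region (SD, n = 3 each). The 6 transcripts therefore made up 58.7% ± 3.79 of the 22 in TZM buds, 44.3% ± 5.80 in MN at initial flowering and 31.5% ± 10.3 in SZT buds (SD, n = 3 each). In the other 6 groups the mean share was between 15.4% and 21.99%. Over all 22 the sum was 723 ± 124 FPKM in TZM buds and 335 ± 29.3 at full bloom (SD, n = 3 each). In SZT it was 375 ± 2.33 FPKM in buds and 246 ± 1.88 at full bloom. In MN it was 277 ± 5.19 FPKM at bud stage 3 and 421 ± 50.5 at initial flowering. The white and red regions were at 261 ± 27.2 and 300 ± 11.4 FPKM. Relative to its level, this sum changed less than that of the 6.

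Of the 16, 12 passed the filter. The 3 most abundant were Cluster-100695.6, Cluster-100695.20 and Cluster-100695.1, with means of 69.8, 62.5 and 25.4 FPKM over the libraries. Group means of Cluster-100695.6 stayed between 60.7 and 79.9 FPKM and those of Cluster-100695.20 between 50.4 and 75.3, and neither was called in a comparison of bud with full bloom. Cluster-100695.1 fell from 31.6, 36.8 and 34.5 FPKM in TZM buds to 19.8, 14.1 and 13.8 at full bloom (log2 difference -1.08, SE 0.17, limma adjusted p = 3.17e-05). It also fell from initial flowering to the white (-1.19, limma adjusted p = 1.70e-05) and red regions of MN (-1.01, limma adjusted p = 0.000117). It did not pass the wider threshold from bud to full bloom in SZT, at 25.8, 35.5 and 19.6 FPKM and then 19.6, 26 and 24.1 (-0.18, limma adjusted p = 0.43), nor from bud stage 3 to initial flowering in MN (0.32, limma adjusted p = 0.165).

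A few more of them are named after their values were seen. Cluster-100695.15 had an r of 0.87 to the sum of the 6 over 27 libraries and fell from 11.4, 16.3 and 20.5 FPKM in TZM buds to 2.34, 3.81 and 3.12 at full bloom (log2 difference -2.04, SE 0.34, limma adjusted p = 4.64e-05). From bud stage 3 to initial flowering of MN, where the 6 rose, its libraries overlapped, at 2, 6.03 and 6.23 FPKM and then 7.1, 7.92 and 4.45 (log2 difference 0.46, SE 0.34, limma adjusted p = 0.323). Cluster-100695.8 went the other way from the 6 in TZM. It was at 0.84, 1.24 and 1.31 FPKM in TZM buds and at 27.8, 32.3 and 24.4 at full bloom (log2 difference 3.77, SE 0.29, limma adjusted p = 2.02e-09), at 0, 0.18 and 0.87 in SZT buds and at 4.59, 8.60 and 2.60 at full bloom, and it was listed at 0 in the 3 libraries of MN at bud stage 1. In MN it rose from 0.18, 0.36 and 0.46 FPKM at bud stage 3 to 17.1, 15.04 and 17.6 in the red region (log2 difference 3.72, SE 0.29, limma adjusted p = 1.12e-09). Cluster-100695.0 rose likewise from bud to full bloom, from 6.03 to 21.3 FPKM in TZM and from 1.03 to 9.88 in SZT (log2 differences 1.68 and 2.58, limma adjusted p = 0.000164 and 6.11e-07). Between bud and full bloom of TZM and SZT, transcripts of 1 cluster number thus moved in opposite directions. From bud stage 3 to initial flowering of MN, Cluster-100695.8 and Cluster-100695.0 both rose, as the 6 did. Their log2 differences there were 1.87 and 0.95 (limma adjusted p = 2.61e-05 and 0.02).

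**Figure D3:**
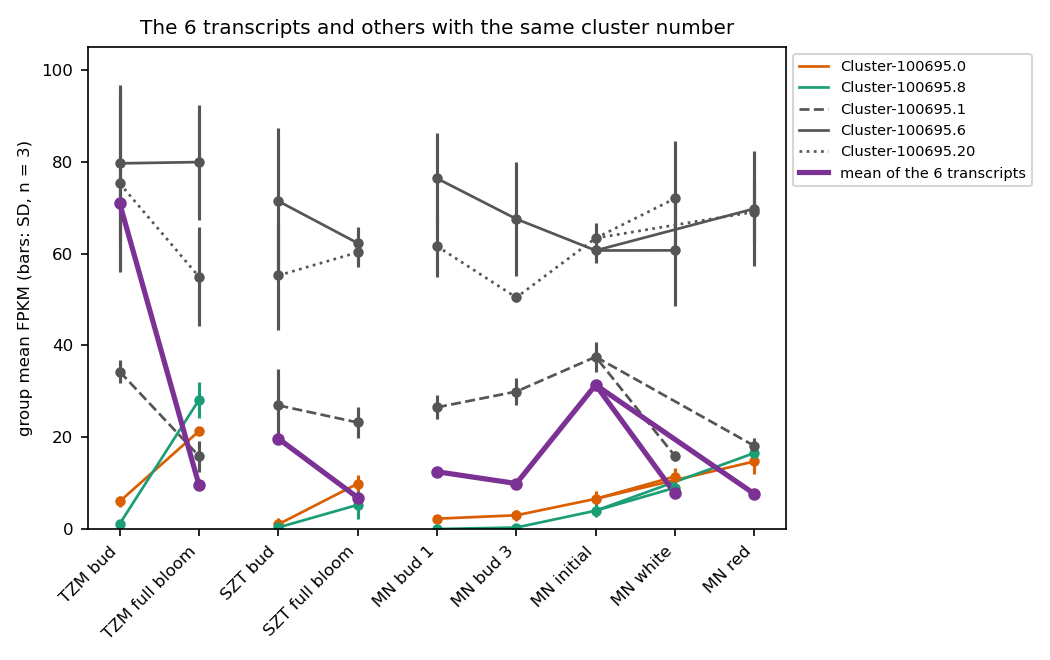
Group mean FPKM (y axis, bars SD of 3) over the 9 groups (x axis) of 5 further transcripts of the same cluster number, and the mean of the 6 miRNA production transcripts without error bars. Lines join groups of 1 cultivar, with both regions of MN joined to initial flowering. Cluster-100695.8 and Cluster-100695.0 rise from bud to full bloom in TZM and SZT, where the 6 are lower at full bloom, and Cluster-100695.6 stays between 60.7 and 79.9 FPKM.

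Outside this cluster number, the transcripts whose pattern was most like the sum of the 6 over the 27 libraries, on log2(FPKM + 1), were Cluster-72345.0 and Cluster-70745.0, both with r = 0.94. Among 55081 transcripts compared, 16 without a name in the study's list had an r of at least 0.9. Cluster-72345.0 averaged 12.1 FPKM in TZM buds, 9.38 in MN at initial flowering and 2.36 in SZT buds, and at most 0.70 in each other group. Cluster-70745.0 averaged 28.7, 14.5 and 6.13 FPKM in the same 3 groups. Of 80 transcripts that the study's list names, the most alike were Cluster-73402.0 of the bZIP family (r = 0.75), Cluster-89089.0 of the SBP family (r = 0.71) and Cluster-97515.3 of the MYB family (r = 0.70). They ranked only 574, 944 and 1098 among the 55081 compared. With r taken over the 9 group means, 2 of these 3 were still among the 3 most alike named. The SBP family holds well known targets of plant miRNAs, and bZIP and MYB proteins are DNA-binding regulators, the latter known for control of pigment synthesis. Cluster-89089.0 averaged 19.8 FPKM in TZM buds and 15.4 in SZT buds, 12.7 in MN at bud stage 3 and 9.64 at initial flowering, so that, unlike the 6 transcripts, its mean was not higher at initial flowering than at bud stage 3. Cluster-97515.3 averaged 40.3 FPKM in TZM buds and 38.6 in SZT buds, 34.8 in MN at bud stage 3 and 11.3 at initial flowering, so its mean too was not higher at initial flowering. Only Cluster-73402.0 of these 3 had a higher mean at initial flowering than at bud stage 3 (116 against 59.6 FPKM), with 193 in TZM buds and 171 in SZT buds. These libraries share composition and stage, and the correlations describe likeness over them.

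The study's list has a second silencing function, positive regulation of posttranscriptional gene silencing, with 6 other transcripts that were also chosen on these samples. From bud to full bloom they had the direction of the miRNA production transcripts, with 4 of 6 called lower in TZM, against 10.8% of all tested transcripts, and 5 of 6 in SZT, against 16.4% (limma). From bud stage 3 to initial flowering, where 3 of the miRNA production transcripts were called higher, 0 of them were called higher and 1 was called lower, against 9.48% of all tested transcripts. At the wider threshold 2 were lower, against 20.8%. From initial flowering to the white and red regions of MN, where 3 and 4 miRNA production transcripts were called lower, 4 and 2 of them were. Of all tested transcripts 7.29% and 6.39% were called lower there (limma). In SZT buds against TZM buds 2 of them were called higher and 5 passed the wider threshold upwards, against 8.46% and 20.2% of all tested transcripts, where 5 miRNA production transcripts were called lower. At full bloom 1 of them passed the wider threshold upwards in SZT against TZM, where 20.7% of all tested transcripts did and 0 of the miRNA production transcripts. In the test of whether the fall from bud to full bloom differed between SZT and TZM, 1 passed the wider threshold with the larger fall in SZT, against 19.5%, where 3 of the miRNA production transcripts had passed with the smaller fall in SZT. Between the red region and bud stage 3 of MN 5 of them were called lower, against 17.3%, where 0 of the miRNA production transcripts were called.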

How the data were processed

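Messenger RNA of petals was sequenced in 27 libraries. The authors trimmed reads with Trimmomatic 0.36, assembled transcripts with Trinity and mapped reads to them. The sources used here name neither the mapper nor the program for expression. The authors deposited the resulting FPKM values for 225938 transcripts, rounded to 2 decimals and with no filter on level. Libraries were grouped by the cultivar and stage in their labels, and 0 columns were left unmatched.

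Tests were run in R 4.3.3 with limma 3.58.1. The fit to log2(FPKM + 1) had a mean for each group over all 27 libraries, moderation with a trend, a filter of 5 FPKM as mean in at least 1 group, 13 comparisons and 2 interactions, two-sided, with Benjamini-Hochberg adjustment within a comparison. DEGseq, which the study used, needs read counts, so it was left out. The fit was tested on simulated data. Sums, shares and correlations were given without a test. With 3 libraries against 3 an exact permutation test cannot go below p = 0.1. Python 3.11.15 with numpy 2.4.6, pandas 2.3.3 and matplotlib 3.10.9 was used for descriptions and plots, and the R package data.table (version 1.17.8) for reading.

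The 6 transcripts were those with the function in the study's supplementary list. Further transcripts named were the 3 most abundant others of the same cluster number, and outside it the 2 most correlated with the sum of the 6 and the 3 most correlated that the list names. Cluster-100695.15, Cluster-100695.8 and Cluster-100695.0 were named after their values were seen. The members and lists were chosen with earlier results of these data known. Alternative settings were median-ratio scaling, a filter at 10 FPKM or none, a pseudocount of 0.01, an adjusted p under 0.05, a replicate block, a fit on the compared libraries alone and leaving out single libraries. For sums, shares and likeness, they were scaling, single libraries left out, all transcripts of the cluster number and the 9 group means. The tests over 36 pairs, the wider threshold under the other settings and the ratio of SZT sums without replicate 2 were added after seeing the data. No sequences of the transcripts were used here.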

Additional observations from a re-analysis of the deposited data

Results flagged for a closer look

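The fall from bud to full bloom differed between SZT and TZM in the test of the difference itself for 3 of the 6 transcripts at an adjusted p under 0.05 (limma), against 16.9% of all tested transcripts in this direction. The fall was smaller in SZT by 2.22 on the log2 scale for Cluster-100695.17 (adjusted p = 0.00302), by 1.66 for Cluster-100695.13 (adjusted p = 0.00342) and by 1.74 for Cluster-100695.10 (adjusted p = 0.0355). With single libraries left out these differences ran from 1.88 to 2.64, from 1.44 to 1.87 and from 1.42 to 2.01, and the adjusted p reached 0.0113, 0.0125 and 0.0966, so that Cluster-100695.10 no longer passed. It did not pass without replicate 2 of the SZT buds, replicate 1 or replicate 2 of SZT at full bloom, replicate 2 or replicate 3 of the TZM buds or replicate 1 of TZM at full bloom. The change from bud stage 3 to the red region of MN differed from the change from bud to full bloom in SZT for Cluster-100695.13, by 1.43 (limma adjusted p = 0.0289), where 5.28% of all tested transcripts passed in this direction. Without replicate 2 or replicate 3 of MN at bud stage 3, replicate 2 of the red region, replicate 1 or replicate 2 of the SZT buds or replicate 2 of SZT at full bloom, this last adjusted p passed 0.05, and it reached at most 0.0800. The SZT buds enter all 4 of these tests. Neither they nor the TZM buds carry a stage number, so cultivar and bud age cannot be told apart in any of the 4.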

How the results depend on the processing

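With an adjusted p under 0.05 in place of the strict call, the counts of the 6 transcripts became 6 from bud stage 3 to initial flowering, 6 from initial flowering to the white region, 5 from bud to full bloom in SZT, 2 between MN at bud stage 3 and SZT buds, and 3 and 1 in the interactions (limma). In fits on the compared libraries alone, which leave fewer samples for the spread, the strict counts were 1 in TZM and 0 in SZT, from bud stage 3 to initial flowering, from initial flowering to either region, and between the SZT and TZM buds. Without a filter, where 224281 transcripts were tested, 1 was called in SZT and 3 between the SZT and TZM buds. A pseudocount of 0.01 gave 3 between those buds, and median-ratio scaling gave 0 in SZT. For the last 2 the cause was not tested. With a library left out the counts were 6 in TZM, 1 to 2 in SZT, 1 to 5 between the SZT and TZM buds, 2 to 4 from bud stage 3 to initial flowering, 2 to 3 and 1 to 5 from there to the white and red regions, and 0 to 1 in the first interaction. All other strict counts were within 1.5 times of those reported.

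Of the single differences given, the sign of 2 changed, both for Cluster-100695.10 and with a library left out. Its difference between MN at bud stage 3 and SZT buds lay between -0.33 and 0.039, the latter without replicate 1 of bud stage 3, and in the second interaction it lay between -0.11 and 1.04. Same-numbered libraries of different groups did not deviate together as a whole, with a median r of -0.003 and a highest r of 0.15 over 108 pairs. The sources used here do not say whether white and red libraries of 1 number came from the same flowers. A median pooled over all groups cannot decide that, and the regions were compared as unpaired. With a replicate block, 4 transcripts were called between the SZT and TZM buds and 2 from bud to full bloom in SZT. No library correlated best with its own number in every other group (0 of 27). Depth is unknown, so the precision of the lowest values, such as 0.83 FPKM, is too.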

Other observations

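In the 3 libraries of SZT buds the sum over all 22 transcripts that carry the cluster number of the 6 was 373, 375 and 378 FPKM, while the 6 miRNA production transcripts took 29.5%, 42.7% and 22.4% of it. The 16 others stood at 263, 215 and 293 FPKM, so the library with the highest level of the 6 had the lowest level of the others. At full bloom in SZT the sum over the 22 was 246, 244 and 247 FPKM with the 6 at 19.4%, 13.1% and 17.7%. In TZM buds the sum over the 22 was 592, 837 and 741 FPKM. There replicate 2 was highest both for the 6 (483 FPKM) and for the 16 others (355 FPKM). In MN at initial flowering replicate 3 was lowest in both, at 141 and 225 FPKM, so the opposite order in SZT buds was not general.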
